A study of Mus musculus with 34 samples.

Results

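The 8 genes described here encode enzymes that make cholesterol, and they were chosen by name: *Hmgcs1*, *Idi1*, *Fdps*, *Fdft1*, *Sqle*, *Lss*, *Cyp51* and *Dhcr7*. All 8 were among the 22040 genes of the RNA-seq table, and all 8 passed the filter on low values, which left 12305 genes for testing. Limb bud cells of E11.5 mouse embryos were profiled in 3 WT and 3 CKO libraries. The CKO embryos were *Prrx1-Cre;Hnrnpk* fl/fl. Their Cre recombinase is driven by *Prrx1* regulatory sequence, which is active in limb bud mesenchyme, so cells of other origin in the dissected tissue keep the gene. The WT embryos are labelled *Hnrnpk* WT, and whether they carried Cre or floxed alleles is not given in the sources used here. Other assays made up 28 of the 34 samples of the study and were not analysed here.

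Cholesterol is built from acetyl-CoA. The early enzymes make mevalonate and turn it into the isoprene units that are joined to farnesyl diphosphate. From there one branch leads through squalene and lanosterol to cholesterol, and others lead to ubiquinone, dolichol and the lipid anchors of membrane proteins. The genes of the pathway are known targets of the sterol regulatory element-binding proteins (SREBPs), transcription factors that are cleaved and enter the nucleus when membrane sterol is low. In the limb bud, cholesterol is attached to the signal Sonic hedgehog during its maturation, and inherited loss of *DHCR7* causes Smith-Lemli-Opitz syndrome, in which fused or extra digits are frequent.

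The promoters are shown first, because the members are known as a jointly regulated group and the shared letters can be read from them. RefSeq promoters (build GRCm38.p6) were matched for 5 of the 8 genes by symbol, namely *Hmgcs1*, *Idi1*, *Lss*, *Cyp51* and *Dhcr7*, and 3 were not matched, namely *Fdps*, *Fdft1* and *Sqle*. Motifs of 3 kinds were searched on both strands in the 250 bases before each start. They were the core of a sterol regulatory element (TCACNCCAC), the CCAAT box (CCAAT), which nuclear factor Y binds, and the GC box (GGGCGG), which Sp proteins bind. The motifs did not overlap each other in the windows printed. Each sequence below is written 5′ to 3′ on the strand of the gene, with matches to a motif or to its reverse complement in capitals.
Hmgcs1, chr13:119690201-119690350, plus strand: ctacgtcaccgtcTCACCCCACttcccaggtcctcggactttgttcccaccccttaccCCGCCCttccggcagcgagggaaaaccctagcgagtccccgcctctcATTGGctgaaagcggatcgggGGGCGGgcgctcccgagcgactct
Lss, chr10:76531455-76531604, plus strand: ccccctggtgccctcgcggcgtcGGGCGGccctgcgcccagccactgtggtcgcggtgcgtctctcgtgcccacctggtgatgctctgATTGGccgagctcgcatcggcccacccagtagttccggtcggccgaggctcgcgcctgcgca
Cyp51, chr5:4104717-4104847, minus strand: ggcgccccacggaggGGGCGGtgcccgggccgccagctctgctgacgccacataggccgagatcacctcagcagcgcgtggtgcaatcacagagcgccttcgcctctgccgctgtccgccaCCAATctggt
Dhcr7, chr7:143823017-143823166, plus strand: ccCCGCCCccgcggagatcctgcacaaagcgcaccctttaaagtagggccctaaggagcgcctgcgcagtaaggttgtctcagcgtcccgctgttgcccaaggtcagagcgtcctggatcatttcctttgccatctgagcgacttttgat

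The sterol regulatory element core was found in the promoter of *Hmgcs1*, 137 bases before the start, and in none of the other 4 matched genes. It occurs in 1.053% of all 32851 promoters of this length. The CCAAT box was present in all 5 matched genes, at 5 of their 7 starts, against 33.85% of all promoters. The GC box was also present in all 5, at 6 of the 7 starts, against 32.74% of all promoters. Among 13 other enzymes of the pathway, 11 were matched, of which 0 had the sterol element core, 10 had a CCAAT box and 10 had a GC box. Of the 3 starts of *Dhcr7*, the first is printed, which has a GC box and no CCAAT box, while the third has both. The second has none of the 3 motifs. The windows of *Idi1* and of the other *Dhcr7* starts lie mostly or wholly within annotated exons and are not printed. A match to these letters is a description of the sequence, not a site in use. Elements whose letters depart from the searched ones were not counted, so the lack of a match does not show that a promoter has no such element.

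The libraries held between 17143052 and 24627747 reads on the listed genes, as recovered from the deposited FPKM (fragments per gene, scaled to exon length and library size). The 8 genes had between 36 reads (*Fdps*) and 6298 reads (*Hmgcs1*) in a library. *Hnrnpk*, the targeted gene, stood at 193, 195 and 185 FPKM in WT replicates 1 to 3 and at 127, 142 and 135 FPKM in CKO, without overlap, a log2 fold change of -0.50 with an adjusted p value of 0.334 (limma, n = 3 per group). The adjusted p value was 0.0575 with the replicate number as a block in limma, 0.0254 with limma voom on the recovered reads and the block, and 0.0374 in replicates 2 and 3 alone (limma). The FPKM of *Hnrnpk* covers all its annotated exons (6466 bases), while the loxP sites flank only some of them. How much of the remaining RNA came from the recombined allele was not tested. The paper reports efficient loss of Hnrnpk in E11.5 CKO limb buds by western blot and qPCR. All 12 limb mesenchyme markers were above 0 in every library, and their summed level was 454 to 530 FPKM in WT and 439 to 488 FPKM in CKO. Of the 12, 10 were lower in CKO, with a median log2 fold change of -0.17, against 0.005 over all tested genes. The largest fall was that of *Tbx5* (log2 fold change -0.93, adjusted p value 0.358 without the block and 0.0073 with it, limma). It does not stand for the list, since the other markers ran from -0.48 for *Twist2* to 0.20 for *Hoxd13*, with *Prrx1* at -0.10. RNA of red cells was plentiful, since 7 globin genes made up 13.7% to 20.6% of the summed FPKM in WT and 11.7% to 32.4% in CKO. All 14 erythroid markers were above 0 in every library. They summed to 38055 to 64296 FPKM in WT and 31066 to 143470 FPKM in CKO. All 14 were higher in CKO, with a median log2 fold change of 0.42. All 8 endothelium markers were lower (median -0.31). Higher in CKO were 6 of 6 tested muscle precursor markers (median 0.40) and 6 of 7 tested macrophage markers (0.35). So were 3 of 3 tested neural crest and glia markers (0.33) and 8 of 9 ectoderm markers (0.15). No marker of these other lists was called with or without the block (limma). The part of these cell types in the results below was not tested. In whole tissue, fewer cells of a type and less RNA per cell cannot be told apart.

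None of the 8 genes passed the test between CKO and WT (0 of 8 at an adjusted p value under 0.05, limma on log2(FPKM + 0.1), where 0.065% of the 12305 tested genes were called). At an unadjusted p value under 0.05, 0 of 8 passed, where 8.31% of all genes did. The CKO and WT values overlapped for every one of them (0 of 8 without overlap, against 14.5% of all genes). With the replicate number as a block in the model, again 0 of 8 were called, while 2.81% of all genes were (1.13% higher and 1.68% lower in CKO). With limma voom on the recovered reads and the block, 0 of 8 were called too, where 5.14% of all genes were. The deviations of the libraries from their group means set replicate 1 apart from replicates 2 and 3 but did not tell replicate 2 from replicate 3. The log2 fold changes ran from -0.07 to 0.22, with 6 above and 2 below 0. Their median was 0.03, beside 0.005 over all tested genes. The 95% interval of the fold change stayed within 2-fold in either direction for all 8 genes, from 0.683 at its lowest to 1.66 at its highest, both for *Fdps*. A p value above the threshold does not show that the levels were equal, and the intervals give the range of change that these libraries leave possible.

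**Figure D1:**
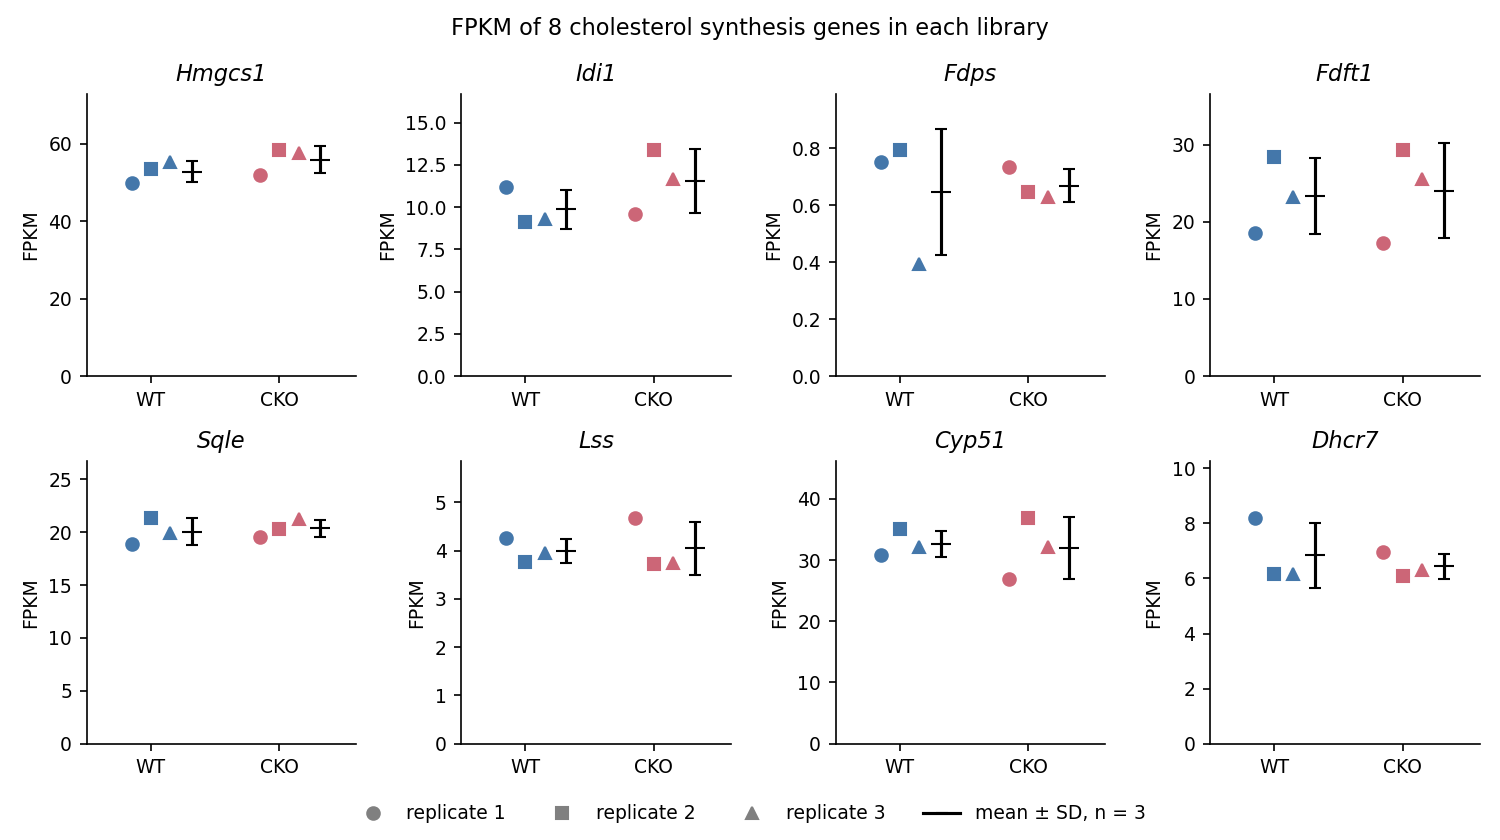
FPKM of the 8 genes (vertical axes, starting at 0) in the 3 WT (blue) and 3 CKO (red) libraries, with the replicate number as the symbol and the mean ± SD (n = 3) as a black bar. The CKO and WT values of each gene overlap, and *Fdft1* is lowest in replicate 1 of both groups, at 17.3 and 18.5 FPKM.

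The first enzyme of the group, *Hmgcs1*, joins acetyl-CoA and acetoacetyl-CoA to HMG-CoA. It was the most abundant of the 8. Its level was 49.8, 53.4 and 55.3 FPKM in WT replicates 1, 2 and 3 and 51.9, 58.4 and 57.5 FPKM in CKO replicates 1, 2 and 3. The CKO library was the higher in each of the 3 same-numbered pairs, by 0.06 to 0.13 on the log2 scale, but the groups overlapped. On average the difference was a log2 fold change of 0.08 (95% interval -0.19 to 0.35, adjusted p value 0.896, limma), which on the linear scale leaves 0.878 to 1.28-fold possible. The gene lies at chr13:119690379-119708260 on the plus strand (GENCODE vM21, GRCm38), and 557 bases of its exons lie opposite an antisense gene, *Gm48342*.

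*Idi1* interconverts isopentenyl and dimethylallyl diphosphate, the isoprene units. Its level was 11.2, 9.12 and 9.29 FPKM in WT replicates 1, 2 and 3 and 9.60, 13.4 and 11.7 FPKM in CKO replicates 1, 2 and 3. The pairs disagreed in direction: CKO was lower than WT by 0.22 in replicate 1 (log2 difference -0.22) and higher by 0.55 and 0.32 in replicates 2 and 3. The log2 fold change over the 6 libraries was 0.22, the largest of the 8 (95% interval -0.15 to 0.58, adjusted p value 0.788, limma). In replicates 2 and 3 alone it was 0.44 with an adjusted p value of 0.0178 (limma, n = 2 per group), a call that 15.1% of all tested genes also reached in those 4 libraries. Leaving out CKO replicate 1 alone gave 0.34, with an unadjusted p value of 0.0415 and an adjusted p value of 0.239 (limma). This gene carries a limit on its reads, because 68.0% of the 50-base windows of its exons occur again elsewhere in the genome. How reads with several positions were counted is not given in the sources used here. It lies at chr13:8885501-8892451, plus strand.

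*Fdps* joins isoprene units to farnesyl diphosphate, the branch point of the pathway. It was the lowest of the 8, at 0.751, 0.794 and 0.392 FPKM in WT replicates 1, 2 and 3 and at 0.735, 0.645 and 0.628 FPKM in CKO replicates 1, 2 and 3. WT replicate 3 stood below the other 5 libraries, and the CKO values lay between the WT values. Between 36 and 80 reads per library stand behind these values. This gave a log2 fold change of 0.09 (95% interval -0.55 to 0.73, adjusted p value 0.954, limma), the widest interval of the group, and it was -0.18 without WT replicate 3. The level of this gene is uncertain. Of its longest coding transcript, 81.3% (1124 bases) is shared on the same strand with another annotated protein-coding gene, *Gm43738*. Reads in the shared exons belong to both annotated genes, and how such reads were counted is not given in the sources used here. *Fdps* lies at chr3:89093588-89101959 on the minus strand.

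*Fdft1*, squalene synthase, joins farnesyl diphosphate units to squalene, the first step that leads to sterols alone. Its level was 18.5, 28.4 and 23.1 FPKM in WT replicates 1, 2 and 3 and 17.3, 29.3 and 25.5 FPKM in CKO replicates 1, 2 and 3. Replicate 1 was the lowest and replicate 2 the highest in both groups. Between the groups the log2 fold change was 0.03 (95% interval -0.51 to 0.56, adjusted p value 0.985, limma). With the replicate block the interval narrowed to -0.20 to 0.25 around the same value. At chr14:63145150-63179578 on the minus strand, 774 bases of its exons lie opposite exons of *Ctsb*.

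*Sqle*, squalene epoxidase, adds the oxygen from which the sterol ring is closed. Its level was 18.9, 21.4 and 19.9 FPKM in WT replicates 1, 2 and 3 and 19.5, 20.3 and 21.2 FPKM in CKO replicates 1, 2 and 3. For its level it varied least among the 8 genes, with an SD of 0.970 FPKM around a mean of 20.2 over all 6 libraries. Its log2 fold change was 0.02 (95% interval -0.23 to 0.28, adjusted p value 0.973, limma). *Sqle* lies at chr15:59315077-59331192 on the plus strand, with no other gene on its exons.

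*Lss*, lanosterol synthase, closes the ring. Its level was 4.25, 3.77 and 3.95 FPKM in WT replicates 1, 2 and 3 and 4.69, 3.72 and 3.75 FPKM in CKO replicates 1, 2 and 3. Replicate 1 was the highest in both groups, opposite to *Fdft1*. Its log2 fold change was 0.01 (95% interval -0.31 to 0.34, adjusted p value 0.986, limma). Its exons at chr10:76531588-76557138, plus strand, lie opposite those of *4930483K19Rik* over 381 bases.

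*Cyp51* removes a methyl group from lanosterol, an early step from lanosterol towards cholesterol. Its level was 30.8, 35 and 32.1 FPKM in WT replicates 1, 2 and 3 and 26.9, 37.0 and 32.1 FPKM in CKO replicates 1, 2 and 3. CKO replicates 1 and 2 held the lowest and the highest value of all 6 libraries, with the WT values between them. The log2 fold change was -0.04 (95% interval -0.37 to 0.30, adjusted p value 0.965, limma). *Cyp51* lies at chr5:4081145-4104746 on the minus strand, where 166 bases of its exons lie opposite *Akap9*.

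*Dhcr7*, a sterol reductase that acts at the end of the pathway, stood at 8.21, 6.15 and 6.17 FPKM in WT replicates 1, 2 and 3 and at 6.95, 6.08 and 6.30 FPKM in CKO replicates 1, 2 and 3. WT replicate 1 was above the other 5 libraries. Between CKO and WT the log2 fold change was -0.07 (95% interval -0.42 to 0.27, adjusted p value 0.927, limma). Without WT replicate 1 it was 0.06. The gene lies at chr7:143823145-143848410 on the plus strand and shares its exons with no other gene.

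**Figure D2:**
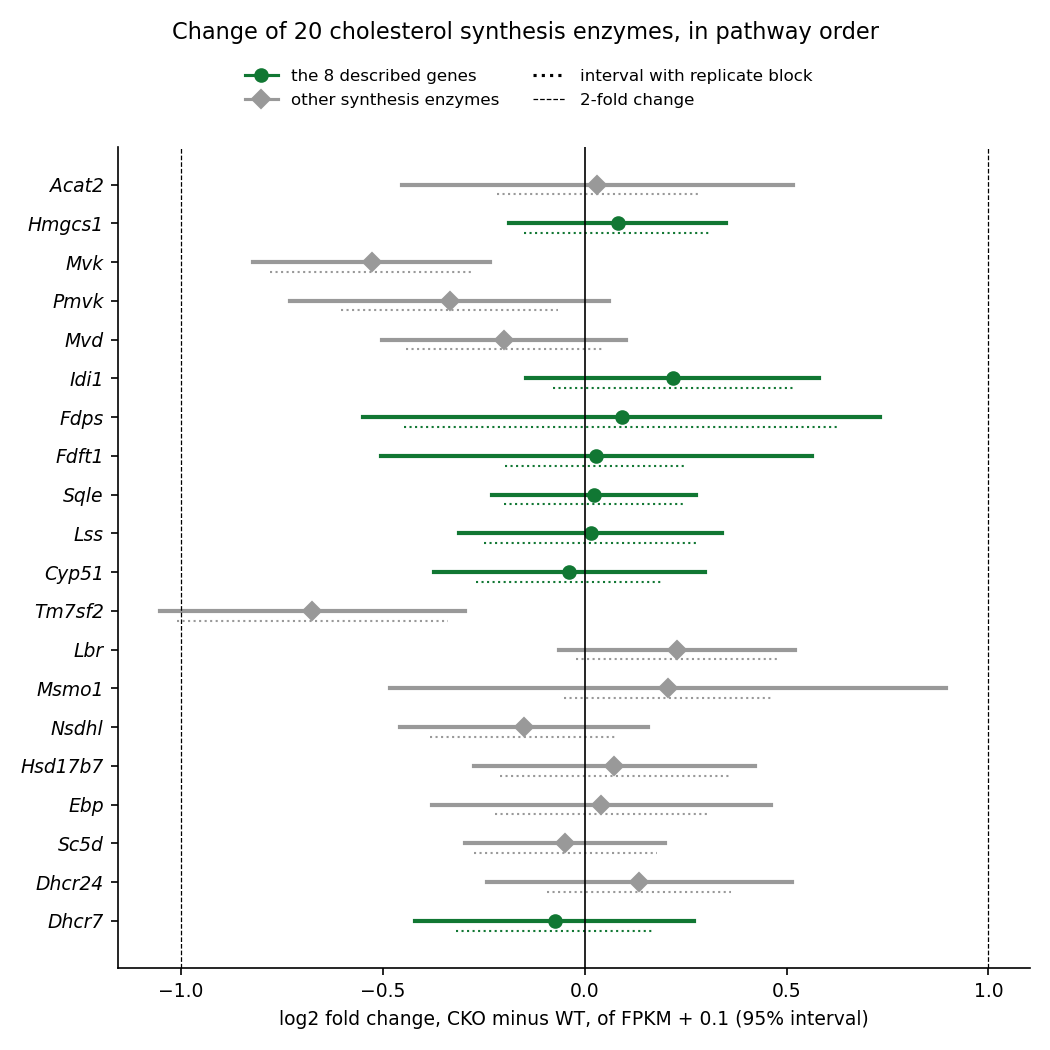
Log2 fold change (horizontal axis, CKO minus WT) with its 95% interval for 20 cholesterol synthesis enzymes from the top to the bottom of the pathway, the 8 described genes in green and the others in grey, with the interval under the replicate block dotted. The green points lie between -0.07 and 0.22 with all intervals across 0, while *Mvk* at -0.53 and *Tm7sf2* at -0.67 lie to the left of 0.

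By level, the order was *Hmgcs1* (mean over the 6 libraries 54.4 FPKM), *Cyp51* (32.3), *Fdft1* (23.7), *Sqle* (20.2), *Idi1* (10.7), *Dhcr7* (6.64), *Lss* (4.02) and *Fdps* (0.658). FPKM is a level per length, so these values can be set beside each other. The ranges of neighbours overlapped for *Cyp51* and *Fdft1* and for *Fdft1* and *Sqle*, so these neighbours were not ordered beyond their spread, and the ranges of the other neighbours did not overlap. The length used is the sum of all annotated exons, which for *Lss* is 10787 bases against 4667 bases in its longest coding transcript. Scaled to the longest coding transcript, a comparison added after the data were seen, *Sqle* moved above *Cyp51* and *Fdft1* (40.7 against 36.3 and 27.1) and *Dhcr7* above *Idi1* (13.7 against 12.4). *Hmgcs1* stayed first at 72.1 and *Fdps* last at 2.0. The place of *Fdps* carries the limit given above, on reads in the exons shared with *Gm43738*.

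The 8 genes did not vary as a unit over the libraries. Across the 28 pairs of members, 15 correlations of log2(FPKM + 0.1) over the 6 libraries were positive. The highest was between *Fdft1* and *Cyp51* (Pearson's r = 0.93) and the lowest between *Fdft1* and *Lss* (r = -0.95). These are descriptions over 6 libraries that share their replicate numbers and their scaling. *Fdft1* differed most between replicate 1 and the mean of replicates 2 and 3, with a log2 difference of -0.56. That of *Cyp51* was -0.24, that of *Hmgcs1* -0.14 and that of *Sqle* -0.11. *Dhcr7*, *Fdps* and *Lss* went the other way, with differences of 0.29, 0.27 and 0.23. Over all tested genes, 19.6% shifted by more than 0.5 in either direction between these libraries, so a shift of this size was common. Replicate 1 also held the lowest summed ectoderm markers (9 genes, 38.4 FPKM in WT and 43.2 in CKO, against 62.1 to 76.0 in the other libraries) and the lowest globin share (13.7% in WT and 11.7% in CKO). The summed markers of muscle precursors (7 genes, 14.7 FPKM in WT and 26.3 in CKO, against 28.9 to 35), of macrophages (8 genes, 19.7 and 22.0, against 23.8 to 39.8) and of neural crest and glia (5 genes, 3.27 and 6.56, against 7.45 to 8.29) were lowest there too. Those of endothelium (8 genes) were highest in WT replicate 1 (36.7) and lowest in CKO replicate 1 (18.0), against 26.3 to 28.8. No marker of these lists was at 0 in any library. The sums do not stand for every gene of a list. Among muscle precursor markers, the same log2 difference was above 0 for *Pax3* (1.06) and *Lbx1* (0.12) and below 0 for the others. Among macrophage markers it was above 0 for *Cx3cr1* (0.41) and *Ptprc* (0.21) and below 0 for the others. For ectoderm markers it ran from -2.10 for *Krt14* and -1.25 for *Krt5* to -0.007 for *Trp63*. The part of these markers in the shift was not tested.

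**Figure D3:**
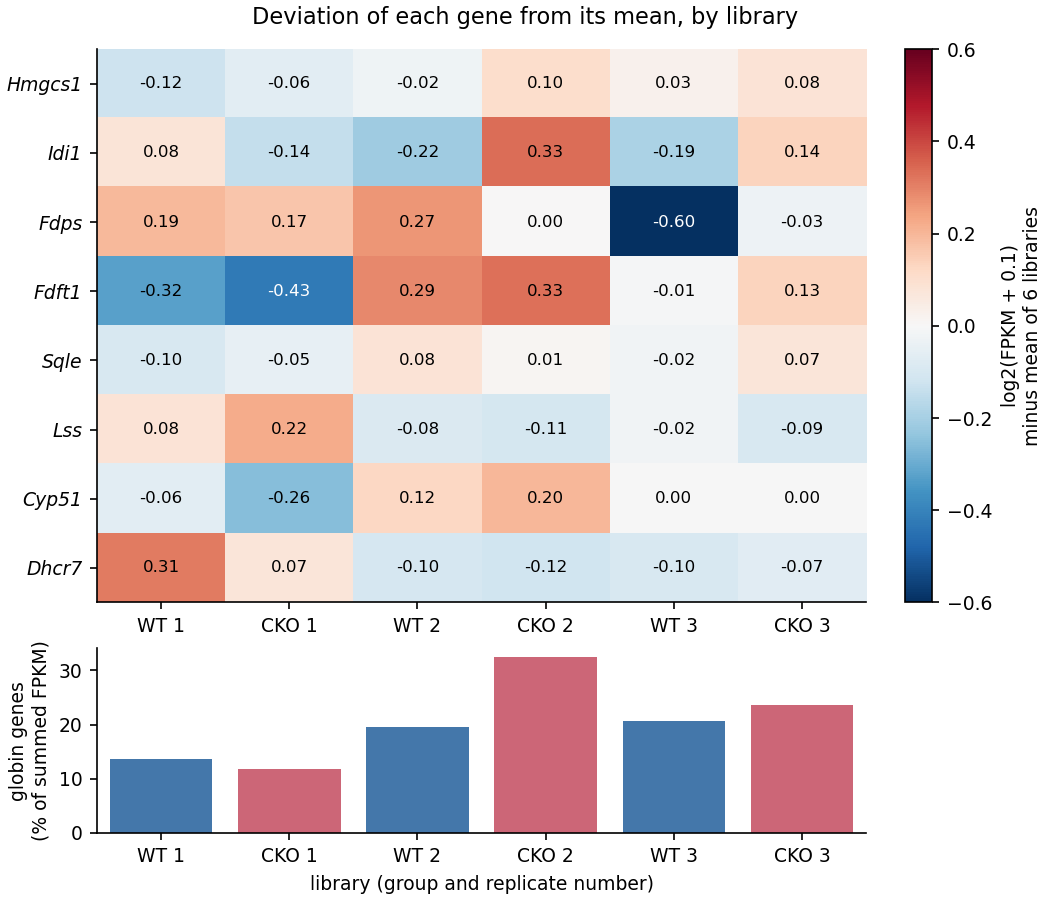
Top, the log2(FPKM + 0.1) of each gene (rows) in each library (columns, same-numbered libraries side by side) minus its mean over the 6 libraries, red above and blue below. Bottom, the share of summed FPKM taken by 7 globin genes, from 11.7% in CKO replicate 1 to 32.4% in CKO replicate 2, with *Fdft1* at -0.32 and -0.43 in the replicate 1 columns.

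The genes whose pattern over the 6 libraries was most like the mean standardized level of the 8 were *Haus8* (r = 0.99), *Rpl28* (0.99), *Fam212a* (0.99), *Nhp2* (0.98) and *3110009E18Rik* (0.98). In all, 50 genes that are no members reached a correlation of 0.95, in a search over the 12305 tested genes. Over only 6 libraries, the highest of so many correlations are high by selection, so these names are a description. Of the members themselves, *Idi1* (0.73), *Cyp51* (0.72) and *Fdft1* (0.72) were closest to their own mean, and *Lss* (-0.67) and *Dhcr7* (-0.32) ran against it.

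Of the 13 other enzymes of the pathway, all were tested, and 0 passed the adjusted threshold without the block. Their median log2 fold change was 0.03, with 7 above and 6 below 0. With the replicate block, 2 of 13 were called, both lower in CKO, where 1.68% of all genes were called lower. One is *Mvk*, mevalonate kinase, which phosphorylates mevalonate. Its level was 8.13, 8.37 and 8.83 FPKM in WT replicates 1, 2 and 3 and 6.57, 5.21 and 5.77 FPKM in CKO replicates 1, 2 and 3, so that every CKO library lay below every WT library. The log2 fold change was -0.53 (95% interval -0.82 to -0.23), with an adjusted p value of 0.304 without the block and 0.0326 with it (limma). The exact two-sided permutation p value was 0.1, the smallest that 3 against 3 libraries can give. *Mvk* was called in 3 of the 18 alternatives. They were the block, limma voom with the block, and replicates 2 and 3 alone, where 2.81%, 5.14% and 15.1% of all genes were called.

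The other is *Tm7sf2*, a sterol reductase that acts just after *Cyp51*. It stood at 3.12, 3.71 and 3.46 FPKM in WT replicates 1, 2 and 3 and at 2.40, 1.74 and 2.24 FPKM in CKO, again without overlap. The log2 fold change was -0.67 (95% interval -1.05 to -0.30), with an adjusted p value of 0.304 without the block and 0.0391 with it (limma). *Tm7sf2* was called in 2 of 16 alternatives, the block and replicates 2 and 3 alone. Its merged exons share 532 bases on the same strand with *Vps51*, but of its longest coding transcript only 1 base is shared. *Lbr*, which can catalyse the same step and was singled out after its values were seen, stood at 27.7 to 31.1 FPKM in WT and 30.8 to 38.1 in CKO (log2 fold change 0.23, adjusted p value 0.703, limma). The kinase after *Mvk*, *Pmvk*, was at 11.5, 15.3 and 11.0 FPKM in WT and 8.35, 10.3 and 11.1 FPKM in CKO (log2 fold change -0.33, adjusted p value 0.672 without the block and 0.174 with it, limma). Without overlap were 2 of the 13 enzymes, a share near that of all genes (14.5%).

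The regulators of the pathway showed no called change either. None of 10 SREBP regulators passed the adjusted threshold with or without the block, none had an unadjusted p value under 0.05 in the fit without it, and their log2 fold changes lay between -0.08 and 0.05. *Srebf1*, which encodes an SREBP, had a log2 fold change of -0.08, *Scap*, the escort of the SREBPs and their sterol sensor, 0.05, and *Insig1*, which retains *Scap* in the endoplasmic reticulum, -0.05. Of 10 genes of cholesterol uptake and transport, 0 were called, with a median of -0.06. The smallest unadjusted p values there belonged to *Lipa*, the lysosomal lipase (log2 fold change -0.24), to *Npc2*, which carries cholesterol out of the lysosome (-0.16), and to *Scarb1*, a lipoprotein receptor (-0.11).

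In the list of storage and efflux genes, 6 of 8 were tested, and *Nr1h3* and *Ch25h* were below the filter. *Cyp27a1*, a mitochondrial sterol hydroxylase that makes oxysterols and bile acid precursors from cholesterol, was at 6.89, 6.02 and 5.61 FPKM in WT replicates 1, 2 and 3 and at 4.30, 3.05 and 3.57 FPKM in CKO. The highest CKO value was below the lowest WT value, and 14.5% of all genes were without overlap in either direction. The log2 fold change was -0.75 (95% interval -1.13 to -0.38), with an adjusted p value of 0.247 without the block and 0.0070 with it (limma). *Cyp27a1* was called in 3 of the 18 alternatives. They were the block, limma voom with the block, and replicates 2 and 3 alone, where 2.81%, 5.14% and 15.1% of all genes were called. In the same list, *Apoe*, which carries cholesterol between cells, had a log2 fold change of 0.25, and *Soat1*, which esterifies cholesterol for storage, of -0.14. Neither was called with or without the block.

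The branches that share substrates or regulators with the pathway held no gene that was called with or without the block. Of 9 genes of the isoprenoid branch, 0 were called, with a median of 0.07. *Coq2*, which attaches the isoprenoid tail of ubiquinone to its ring, stood at 13.2, 13.5 and 13.2 FPKM in WT and 10.02, 9.93 and 10.6 FPKM in CKO, without overlap (log2 fold change -0.38, adjusted p value 0.358 without the block and 0.0678 with it, limma). *Dhdds*, a subunit of the enzyme that makes dolichol, had a log2 fold change of -0.25 and *Fntb*, a farnesyltransferase subunit, of -0.21. Of 11 fatty acid synthesis genes, 0 were called, with a median of 0.006, and the desaturases *Scd1* and *Scd2* each had a log2 fold change of 0.15. Whether reads of these closely related genes can be told apart was not measured. *Me1*, malic enzyme, had one of -0.28.

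**Figure D4:**
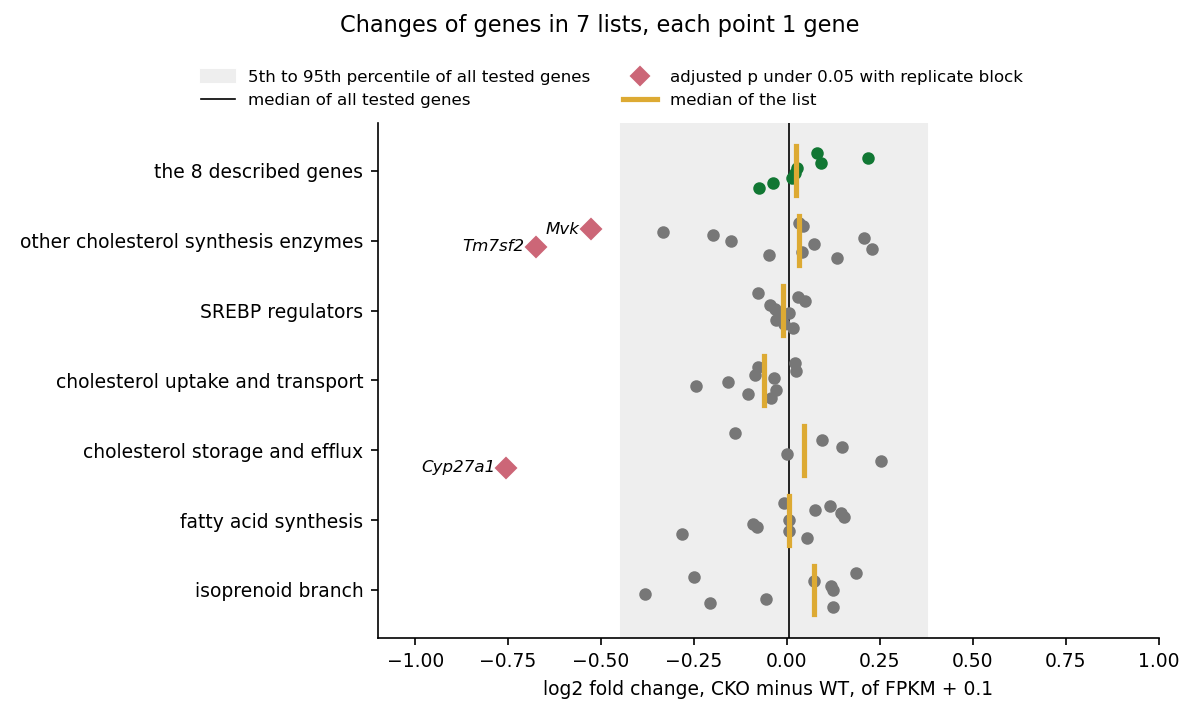
Log2 fold change (horizontal axis, CKO minus WT) of each tested gene in 7 lists, with the median of each list as a yellow bar, the median of all 12305 tested genes as a black line and their 5th to 95th percentile range (-0.45 to 0.38) in grey. Red diamonds mark *Mvk*, *Tm7sf2* and *Cyp27a1*, the genes called with the replicate block, and the 8 described genes all lie inside the grey band.

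The processing moved the small differences of the 8 genes around 0 without making a call, except for *Idi1* in replicates 2 and 3. Across the 18 alternatives, the log2 fold change of *Idi1* stayed above 0 (0.11 to 0.44). Each of the other 7 genes had the opposite sign in at least 1 alternative. Rescaling each library to the same sum without the globin genes moved the median of all tested genes from 0.005 to -0.10 and that of the 8 genes from 0.03 to -0.08, so that both medians moved by about the same amount.

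**Figure D5:**
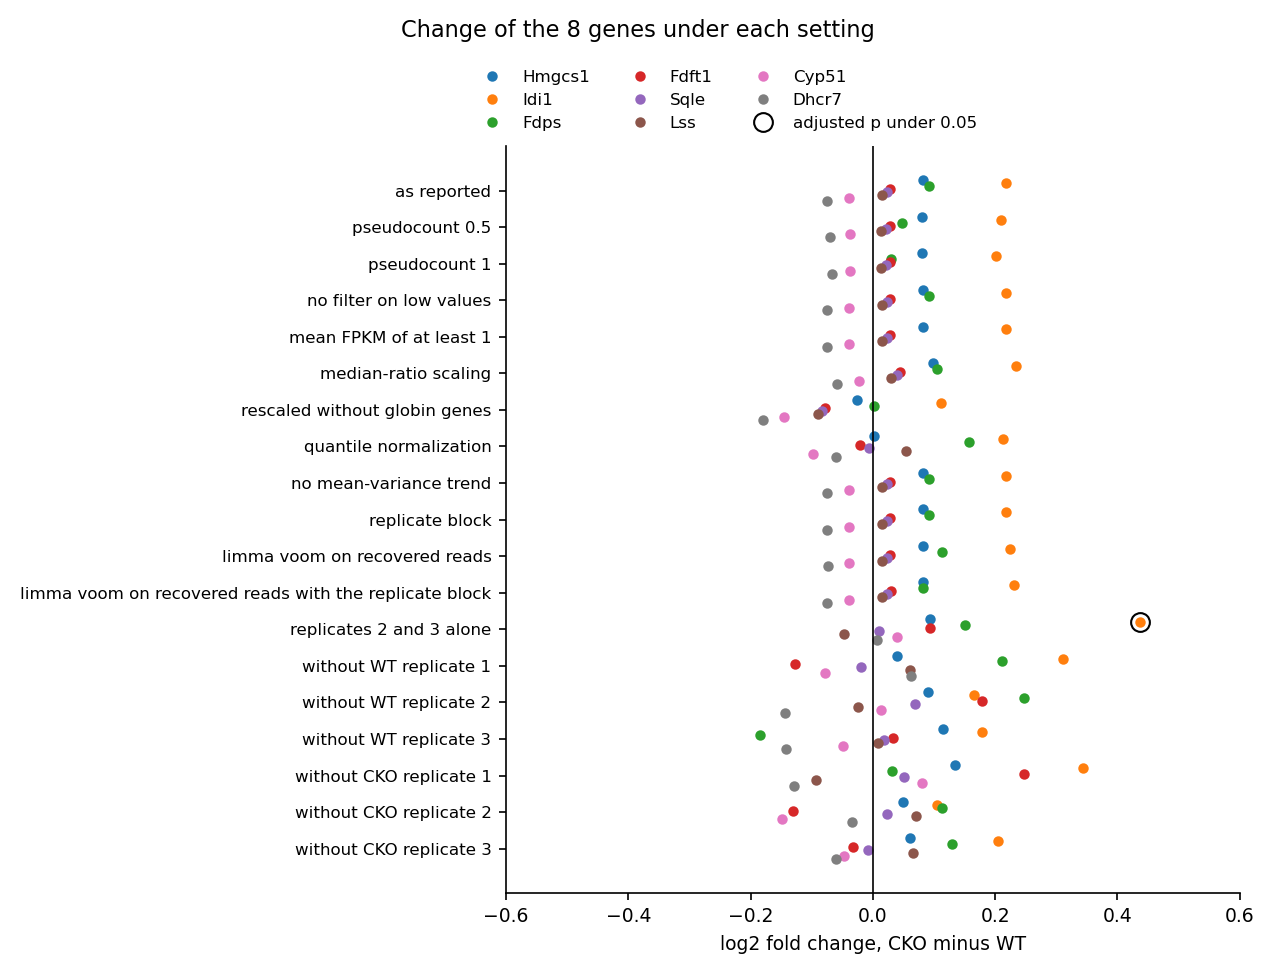
Log2 fold change (horizontal axis, CKO minus WT) of each of the 8 genes (colours) as reported and under 18 alternatives (rows), with a black ring around values at an adjusted p value under 0.05. The only ring is *Idi1* in replicates 2 and 3 alone, at 0.44.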

How the data were processed

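RNA-seq libraries of 3 WT and 3 CKO limb bud samples were made with a stranded mRNA kit. The authors deposited 1 table of FPKM for protein-coding genes. The submitters' processing notes name cutadapt 2.5, HISAT2 2.1.0, featureCounts 1.6.3 and mm10, and do not give the strand or multi-mapping settings. Multiplied by the merged exon length (GENCODE vM21, in which 99.9% of the identifiers were found) and the library size, 94.0% to 94.5% of low values came out as whole reads (tolerance 0.1 reads). These reads came to 1.11 times the library size behind the FPKM in CKO replicate 2, to 1.03 times in CKO replicate 3 and to 0.947 to 0.968 times elsewhere, which shows that a scaling had been applied.

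The log2(FPKM + 0.1) values of the 12305 genes with a mean of at least 0.5 FPKM were compared with limma 3.58.1 (eBayes with trend) in R 4.3.3, with p values adjusted over all of them by the Benjamini-Hochberg method. A call is an adjusted p value under 0.05. The p values measure the spread between the libraries, which the study calls biological replicates. WT and CKO share replicate numbers, and the deviations of same-numbered libraries from their group means correlated across genes at 0.64, 0.44 and 0.27. The fit with the replicate block was therefore printed for the counts and for several genes, including some whose call it did not change. WT replicate 2 correlated more with CKO replicate 3 (0.49), and WT replicate 3 more with CKO replicate 2 (0.31), than with its own number, while replicate 1 correlated negatively with replicates 2 and 3 of the other group (-0.60 to -0.37). Deviations from a group mean cancel within the group, so these negative values follow from the positive value of 0.64 and add nothing to it. By that value the numbers set replicate 1 apart, and they do not separate replicates 2 and 3. The alternatives were other pseudocounts, filters and scalings, limma without the trend, limma voom on the recovered reads (11030 genes), the block, replicates 2 and 3 alone and each library left out. The model was tested on simulated data, in which same-numbered libraries shared a deviation. Without the block it called 42% of the genes given a log2 change of 1 and 89% of those given 2, with 0 false calls. With the block it called 84% and 97%, with 8 false calls. In this simulation, a log2 change of 1 was thus often missed without the block. The simulated deviation was identical in same-numbered libraries of both groups, which favours the block. In the data, replicates 2 and 3 do not pair in this way, so the gain need not hold for the calls above. Members and lists were chosen with earlier results of these data known. Named genes are the 8, *Hnrnpk*, the 3 genes of each other list with the smallest p value, genes called with or without the block, and the 5 most alike in pattern. Single markers of cell types were named after their values were seen. Python 3.11.15 was used. The values of 1 enzyme of the pathway are not reported here by gene.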

Additional observations from a re-analysis of the deposited data

How the results depend on the processing

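Few reads limit *Fdps* most, with 36 to 80 per library and a 95% interval of the fold change from 0.683 to 1.66. Its read number also depends on how reads in the exons shared with *Gm43738* were counted, which is not given. The count of all genes called was 8. It was 4 after rescaling without globin genes, 14 with quantile normalization, 346 with the replicate block, 567 with limma voom and the block and 1863 in replicates 2 and 3 alone, and 1 to 23 with 1 library left out, with the lowest count when CKO replicate 3, CKO replicate 2 or WT replicate 3 was missing and the highest when CKO replicate 1 was. At an unadjusted p value under 0.05, 1022 genes passed. The cause of these differences was not tested.

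The count of the 8 genes called stayed 0 in 17 alternatives and was 1 (*Idi1*, 0.44) in replicates 2 and 3 alone. Of the 61 genes of the other lists, 0 of 59 tested were called as reported and 3 of 59 with the block (2.81% of all genes). With limma voom and the block 2 of 48 were called (5.14% of all genes), since genes such as *Tm7sf2* whose reads did not come out whole could not be fitted, and in replicates 2 and 3 alone 5 of 58 (15.1% of all genes). The block changed no call among the 8 genes.

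The median of the 8 genes was -0.081 after rescaling without globin genes, where that of all genes was -0.0998. The same rescaling gave opposite signs for *Fdft1* (-0.079), *Hmgcs1* (-0.025), *Lss* (-0.090), *Sqle* (-0.084) and *Scap* (-0.057). Quantile normalization gave -0.021 for *Fdft1* and -0.0056 for *Sqle*. Replicates 2 and 3 alone gave 0.040 for *Cyp51*, 0.0066 for *Dhcr7*, -0.047 for *Lss* and -0.074 for *Scap*. With 1 library left out, the log2 fold change ran from -0.15 to 0.081 for *Cyp51*, from -0.14 to 0.062 for *Dhcr7*, from -0.13 to 0.25 for *Fdft1*, from -0.18 to 0.25 for *Fdps*, from -0.092 to 0.071 for *Lss*, from -0.020 to 0.069 for *Sqle*, from -0.11 to 0.21 for *Scap*, from -0.21 to 0.020 for *Scarb1* and from -0.21 to 0.051 for *Srebf1*. Among the 8 genes, 122 values in the alternatives kept their direction and their side of the threshold, 20 changed direction and 1 passed the threshold.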
